A study of Mus musculus with 35 samples.

Results

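The nuclear-encoded genes of the mitochondrial respiratory chain were followed in RNA from the hypothalamus of 35 male mice, with 1 library per mouse. Members were taken by name: every gene of the count tables whose symbol starts with Ndufa, Ndufb, Ndufc, Ndufs, Ndufv, Sdha to Sdhd, Uqcr, Cox4 to Cox8 or Atp5. Of 104 such names, 7 carry the pseudogene mark -ps, 1 was left out by name, and 3 had a mean below 10 counts per library (Cox7b2 with 7.11, Cox8b with 3.09 and Cox8c with 0.0286). The tables list 49568 gene names, 36082 of them with any count, and 93 were members. All 93 passed the filter on low counts and were tested. Of the 20 control mice, 10 had food ad libitum and 10 had none for the 16 h from ZT0. Mice with the PER2-S662D mutation were studied in both states (n = 5 each), and mice labelled Per2 ko in the fasted state (n = 5). All carry the strain label B6/J and the time label ZT16, in hours of Zeitgeber time, which counts from lights-on. The labels do not say how the S662D allele was made or which exons the knockout lacks, and no fed Per2 ko group was analysed here. Nothing in the labels says whether litters or collection days were shared, so p-values measure the spread between these mice.

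The respiratory chain sits in the inner mitochondrial membrane. Complex I takes electrons from NADH and complex II takes them from succinate, complex III passes them to cytochrome c, complex IV passes them to oxygen, and ATP synthase uses the resulting proton gradient to make ATP. Most subunits are encoded in the nucleus and imported, a small set is encoded by mitochondrial DNA, and assembly factors help to build the complexes without staying in them. Neurons depend on this pathway for most of their ATP. By role, the members were 7 core and 28 accessory subunits of complex I with 8 of its assembly factors, 4 subunits and 4 assembly factors of complex II, 8 subunits of complex III, 16 of complex IV, 15 of ATP synthase, the supercomplex factor Cox7a2l, and 2 genes kept apart from these lists, Atp5s (coupling factor B of ATP synthase) and Atp5sl (an assembly protein of the complex I membrane arm).

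The members lie on 19 chromosomes, with 3 members on X, and some short motifs near start sites were more common among them than over all promoters. NRF1, the ETS factor GABPA and YY1 are textbook regulators of nuclear genes for mitochondrial proteins. RefSeq promoter windows (build GRCm38.p6, 250 bases before to 50 bases after a start) matched 78 of the 93 members, 75 by symbol and 3 by synonym. Both strands were searched for the NRF1 palindrome with any base in its sixth position, the ETS motif CCGGAAG and the YY1 motif AAGATGGC. The ETS letters end on the AAG with which the YY1 letters start, so these motifs can overlap. The NRF1 letters were in 21 member windows (26.9%) and in 4.68% of all 27025 windows. The ETS letters were in 21 (26.9%) against 9.08%, and the YY1 letters were in 12 (15.4%) against 2.86%. At least 1 of the 3 was in 46 of 78 windows (59%), against 15% of all windows. For each symbol only the first window by position was used. The 27025 windows were not limited to genes with counts here or matched for base composition. The exact NRF1 palindrome, a subset of the first motif, was in 7 (8.97%) against 0.962%. The sites below are shown because their genes are among those whose fasting response differed between the sets of control libraries described further on. Each is read 5′ to 3′ on the gene's strand, with the motif or its reverse complement in capitals and its first base counted from a start at 0.
Atp5k, NRF1 at -50, chr5:108434430-108434459, minus strand: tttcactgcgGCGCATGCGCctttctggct
Cox6a1, NRF1 at -162, chr5:115349101-115349130, minus strand: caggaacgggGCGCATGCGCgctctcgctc
Atp5g2, NRF1 at -42, chr15:102671070-102671099, minus strand: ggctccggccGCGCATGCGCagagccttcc
Uqcr11, ETS at -66, chr10:80406871-80406897, minus strand: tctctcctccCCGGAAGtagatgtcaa
Ndufb6, ETS at -232, chr4:40279637-40279663, minus strand: cgtccttgttCTTCCGGtcccctcccc
Atp5j, YY1 at -88, chr16:84835047-84835074, minus strand: aagtgtaggaAAGATGGCggagtcttag
A match describes letters and not binding. Among the 54 matched members whose fasting response differed between the control sets, 12 held the NRF1 letters, 15 the ETS letters and 9 the YY1 letters. Among the other 24 matched members the numbers were 9, 6 and 3. The exact NRF1 palindrome, which the printed NRF1 sites hold, was in 3 of the 54 and in 4 of the 24.

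Total counts per library were 17959586 to 37027342, with the deepest libraries in the S662D groups. Per2, the gene altered in both mutants, was checked first: it had 25.9 to 32.6 CPM (counts scaled to 1000000 per library) in fed controls, 26.1 to 33.1 in fasted controls, 28.2 to 33.4 in the libraries labelled Per2 ko, 16.9 to 21.4 in fed S662D and 16.4 to 22.7 in fasted S662D mice. The Per2 ko range overlapped that of controls, so the label could not be checked by this gene's total count, and both S662D ranges lay below those of controls. The 8 hypothalamic marker genes summed to 470 to 686 CPM over the 35 libraries. The 5 thalamic markers summed to 968 to 1473 CPM, and the 5 choroid plexus markers to 18.2 to 1537 CPM. The file headers put the libraries in sets. Controls 1 to 5 carry library numbers 121 to 130, the Per2 ko mice 136 to 140, controls 6 to 10 numbers 141 to 150, and the S662D mice 171 to 180. Each control set holds 5 fed and 5 fasted mice. Replicates 2, 3 and 4 of both S662D groups carry an additional digit after the library number, whose meaning is not stated. The S662D and Per2 ko mice each fill a number range of their own, so for them genotype cannot be told apart from library range. Between the control sets, feeding state accounted for, 0 members were called by edgeR's quasi-likelihood test (0.183% of 16909 genes), 6 had an unadjusted p below 0.05 and DESeq2 called 0. This fit has 1 set term for both feeding states, so differences of opposite sign in fed and fasted mice can cancel in it. By state, 11 members were lower in fed and 27 higher in fasted controls 6 to 10 (1.15% and 5.93% of all genes).

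Levels per kilobase of exon length spread most within complex IV, which held the highest member and 3 of the 4 lowest. On this scale the mean CPM per kb over the 35 libraries was 453 for Cox8a, a small subunit of complex IV, and 365 for Cox6a1. It was 307 for Atp5a1 and 302 for Atp5b, the catalytic-head subunits of ATP synthase, and 257 for Cox4i1. The lowest levels were 1.34 for Sdhaf1, an assembly factor of complex II, 1.80 for Cox4i2, 1.86 for Ndufa4l2 and 2.09 for Cox6b2. Median levels were 79.5 CPM per kb for complex IV, 73.0 for complex III, 64.0 for the complex I core, 58.9 for ATP synthase, 57.4 for complex II subunits and 54.4 for complex I accessory subunits. Assembly factors were lower, with medians of 12.6 for complex I and 7.28 for complex II. Within roles the highest and lowest members were Sdha (123) and Sdhc (30.2) among the complex II subunits, Uqcr10 (109) and Uqcrq (50.3) in complex III, and Ndufb9 (162) and Ndufb2 (4.28) among complex I accessory subunits. The lowest complex I core subunit was Ndufs1 (17.5). They were Atp5a1 (307) and Atp5l (11.8) in ATP synthase, Ndufaf2 (19.4) and Ndufaf6 (6.55) among complex I assembly factors, and Sdhaf4 (15.6) and Sdhaf1 among those of complex II. The gene length used counts all annotated exons, so a long alternative exon lowers the value.

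**Figure D1:**
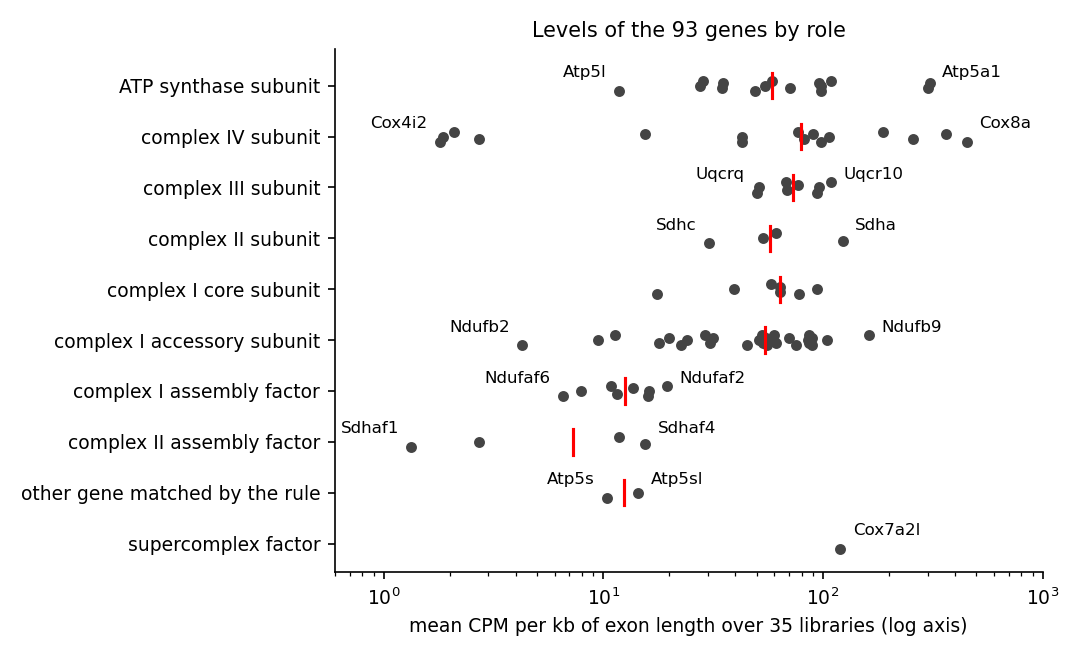
Mean CPM per kb of exon length over 35 libraries (log axis) for the 93 members, 1 point per gene, by role, with the median of each role as a red line and the highest and lowest gene named in all roles but the complex I core. Cox8a (453) is at the upper end, and Sdhaf1 (1.34) and Cox4i2 (1.80) are at the lower end. The medians of both rows of assembly factors lie left of those of the subunit rows, and the rows overlap.

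Where subunits exist as tissue isoforms, the ubiquitous one made up nearly all of the RNA. Per length, Cox4i1 was 98.8% to 99.6% of the pair with Cox4i2, an isoform known from lung and linked to low oxygen, across the 35 libraries. Cox6b1 was 98.0% to 99.4% of its pair with the testis isoform Cox6b2, and Ndufa4 was 97.5% to 99.3% of its pair with Ndufa4l2, a gene induced by low oxygen. Cox7a2 was 95.6% to 98.4% of its pair with Cox7a1, and Cox6a1 was 94.7% to 96.7% of its pair with Cox6a2. Cox7a1 and Cox6a2 are the heart and muscle isoforms. The 3 genes Atp5g1, Atp5g2 and Atp5g3, which encode the same mature c subunit of the ATP synthase ring, had median shares of 15.4%, 32.2% and 52.2%. Their ranges of 13.9% to 17.2%, 29.95% to 34.4% and 50.1% to 55.5% did not overlap, so the order was the same in every library. The third Cox7a name, Cox7a2l, which links complexes III and IV, had 120 CPM per kb. Cox7b2, Cox8b and Cox8c fell below the count minimum, and Cox7b and Cox8a were the members left of those sets.

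The members varied together across libraries. For each member, log2 CPM was compared across the 35 libraries with the median of the other 92. Pearson's r had a median of 0.811 over members, exceeded 0.8 for 48 of 93 and 0.5 for 78, and was negative for 3. These values are a description, since all members share each library's composition. Cox4i1 had the highest value (0.962). Assembly factors followed the rest less closely, with a median r of 0.492 for complex I and 0.152 for complex II, against 0.846 for ATP synthase, 0.846 for complex I accessory subunits and 0.835 for complex IV. The lowest value was that of Ndufa4l2 (-0.229). As a single number per library, the median over members of the log2 deviation from each member's mean was 0.066 to 0.147 in fed controls 1 to 5. It was -0.127 to 0.027 in fasted controls 1 to 5, so these ranges did not touch. In fed controls 6 to 10 it was -0.286 to 0.071 and in fasted controls 6 to 10 it was -0.000308 to 0.188, where fed replicate 10 lay among the fasted libraries. The summed CPM of the members was 8979 (fed control 9) to 11891 (Per2 ko 1) over all libraries.

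**Figure D2:**
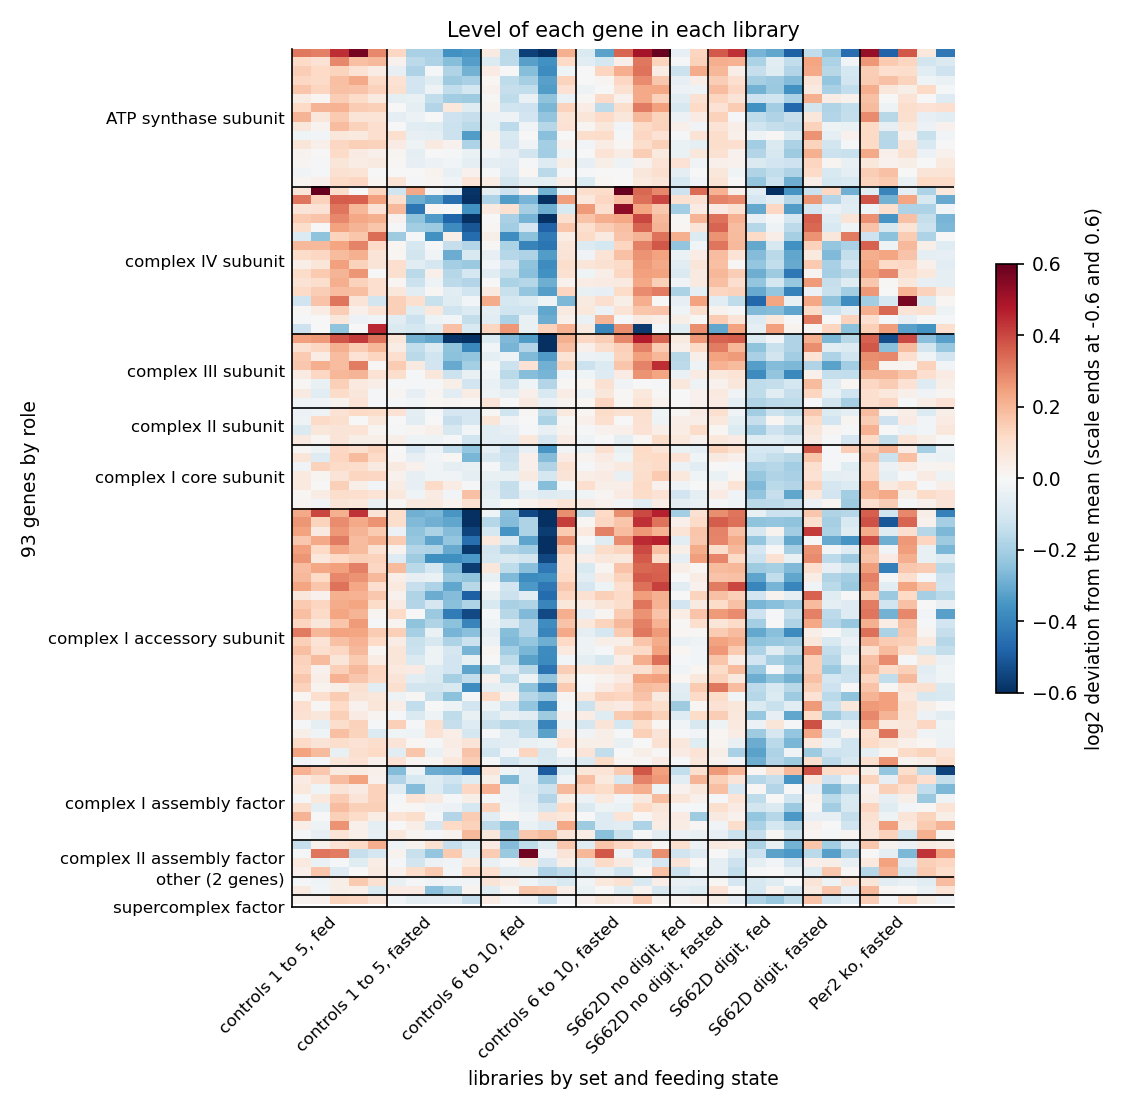
Log2 deviation of each of the 93 members (rows) from its mean over 35 libraries (columns). Rows are ordered by role, and within a role by the size of the difference in fasting response between control sets. Columns are ordered by set and feeding state, and by label number within a block. Fed controls 1 to 5 and fasted controls 6 to 10 are mostly red (above the mean), fasted controls 1 to 5 and fed controls 6 to 10 mostly blue (below it), and fed S662D libraries with the digit blue.

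**Figure D3:**
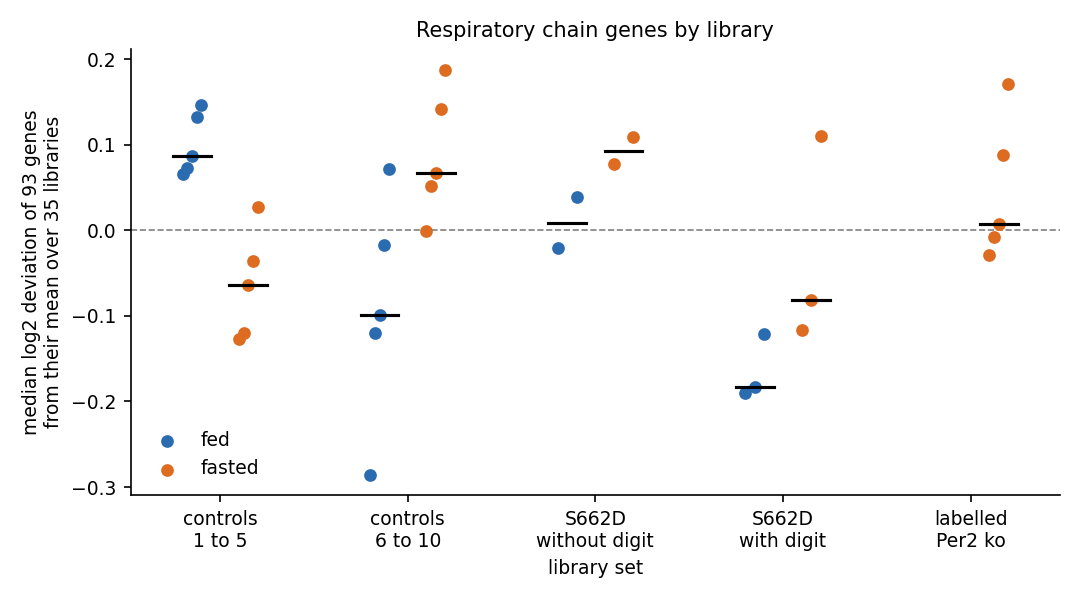
Median log2 deviation of the 93 members from their mean over 35 libraries, 1 point per library, by library set and feeding state, with a black line at the median of each column. The fed points lie above the fasted points in controls 1 to 5, and 4 of 5 fed points lie below every fasted point in controls 6 to 10.

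Over all 20 control mice, no member passed the test for fasting. Among 18063 genes tested with edgeR's quasi-likelihood test and Benjamini-Hochberg adjustment, 701 (3.88%) had an adjusted p below 0.05, called here, and 0 of 93 members did. An unadjusted p below 0.05 in edgeR was reached by 0 members and by 2402 of the 18063 genes, and DESeq2 called 0 members. The log2 fold changes (fasted over fed) ran from -0.25 to 0.09 with a median of -0.00, against 0.00 over all genes, and 41 were above 0. The lowest adjusted p was 0.454 for Atp5s (log2 fold change -0.09, SE 0.05).

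That absence of calls came with opposite differences in the sets of control libraries. A fit to the 20 control libraries with 4 group means was added after the data were seen, and the genes named from it were chosen after their values were seen. Among controls 1 to 5, 32 of 93 members fell on fasting and 0 rose, with a median log2 fold change of -0.17, against 7.14% of 17655 genes called lower, 6.49% called higher and a median of -0.00 over all genes. Among controls 6 to 10, 23 of 93 members rose and 0 fell, with a median of 0.19, against 3.75% of all genes called higher, 3.72% called lower and a median of 0.01. DESeq2 called 41 and edgeR without a filter on low counts 39, for which no share of all genes is given. In fits together with the other groups, controls 6 to 10 gave 1 call (1.71% of all genes) and controls 1 to 5 gave 25 (7.4%). The difference between the 2 responses was itself tested: it was above 0 and called for 61 of 93 members and below 0 and called for none, with a median of 0.38, against 8.69% and 8.05% of all genes and a median of 0.01. The estimates were negative in controls 1 to 5 and positive in controls 6 to 10 for 85 of 93 members. These sets share no library, and across the 93 members the fold changes of one set had a Spearman rho of -0.873 with those of the other. No such rho was taken over all genes. Their fold changes had a rho with transcript length of 0.336 in controls 1 to 5 and -0.359 in controls 6 to 10. Of the 32 members lower in controls 1 to 5 and the 23 higher in controls 6 to 10, 12 were in both lists (37.5% and 52.2%). Of all 93 members, 34.4% were in the first list and 24.7% in the second.

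**Figure D4:**
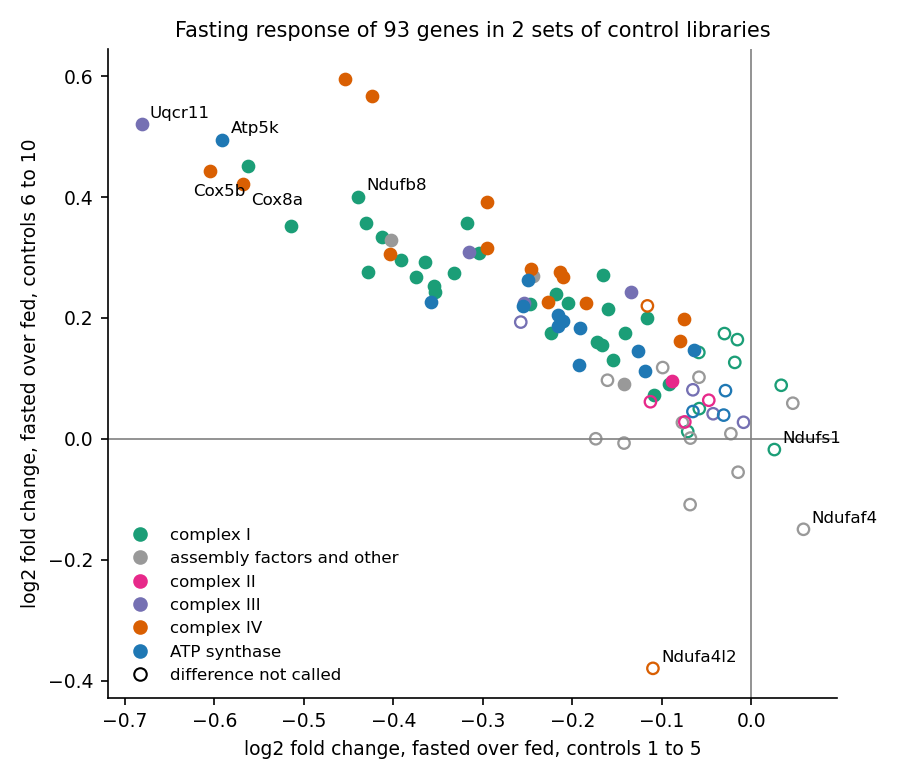
Log2 fold change on fasting of the 93 members in controls 1 to 5 (x axis) and in controls 6 to 10 (y axis), with 5 fed and 5 fasted libraries in each set. Filled points are the 61 members called for the difference between the sets, colours give the complex, and 85 of 93 points lie to the upper left of the origin, with Uqcr11 and Atp5k far from the origin and Ndufa4l2 and Ndufaf4 below 0 on the y axis.

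Uqcr11, a small subunit of complex III (mm10 chr10:80402997-80406830, minus strand), had the largest difference. In controls 1 to 5 it had 57.2, 57.5, 62.6, 64.6 and 60.5 CPM in fed mice and 50.6, 39.3, 38.6, 31.6 and 28.4 in fasted mice. Every fasted library was below every fed one. In controls 6 to 10 it had 45.2, 39.8, 37.8, 25.8 and 55.8 CPM in fed mice and 52.4, 53.4, 58.9, 66.9 and 61.5 in fasted mice, and only the fed library of replicate 10 lay among the fasted values. The log2 fold change was -0.68 (SE 0.17, edgeR adjusted p 0.0123) in controls 1 to 5 and 0.52 (SE 0.16, adjusted p 0.0656) in controls 6 to 10. The difference was 1.20 (SE 0.23, adjusted p 0.00287).

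Cox5b, a zinc-binding subunit of complex IV (chr1:36691484-36693681, plus strand), had the same order of groups. Its CPM was 156, 137, 161, 160 and 148 in fed and 133, 101, 99.0, 90.8 and 76.8 in fasted controls 1 to 5. It was 110, 98.4, 103, 77.2 and 148 in fed and 130, 136, 141, 157 and 165 in fasted controls 6 to 10. The groups did not overlap in the first set, and in the second only fed replicate 10 lay within the fasted range. The difference between the responses was 1.05 (SE 0.21, edgeR adjusted p 0.00358). Cox8a (chr19:7215158-7217616, minus strand) had 270 to 296 CPM in fed and 132 to 247 in fasted controls 1 to 5, and 160 to 259 in fed and 273 to 321 in fasted controls 6 to 10, with no overlap in either set and a difference of 0.99 (SE 0.19, adjusted p 0.00287). Its means were 280.9 ± 10.4 and 189.7 ± 42.2 CPM in fed and fasted controls 1 to 5, and 214.7 ± 38.7 and 287.6 ± 19.0 in fed and fasted controls 6 to 10 (SD, n = 5 each). Atp5k, the e subunit in the membrane part of ATP synthase (chr5:108433244-108434448, minus strand), had 36.1 to 44.1 CPM in fed and 22.5 to 32.1 in fasted controls 1 to 5. In controls 6 to 10 its ranges of 17.8 to 34.2 and 23.2 to 49.8 overlapped, and the difference was 1.09 (SE 0.29, adjusted p 0.0161).

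A smaller difference with less spread was seen for Cox4i1, an abundant subunit of complex IV, and none was called for Ndufs1. Cox4i1 (chr8:120668222-120674207, plus strand) had 421, 426, 461, 436 and 425 CPM in fed and 400, 362, 388, 355 and 351 in fasted controls 1 to 5. It had 397, 347, 352, 323 and 404 CPM in fed and 409, 410, 412, 465 and 437 in fasted controls 6 to 10. Neither set had overlapping groups, and the difference of 0.45 (SE 0.07) had an edgeR adjusted p of 0.000246, shared with Atp5g1 (0.41, SE 0.07) as the lowest among members. Ndufs1, a core subunit of complex I that carries iron-sulfur clusters, was among the members not called. Its CPM was 137 to 149 in fed and 142 to 151 in fasted controls 1 to 5, and 138 to 150 in fed and 135 to 146 in fasted controls 6 to 10, with a difference of -0.04 (SE 0.05, adjusted p 0.648). Counting members whose ranges did not overlap gives 34 of 93 with every fasted library below every fed one in controls 1 to 5, against 4.79% of 18063 genes. In controls 6 to 10, 9 of 93 had every fasted library above every fed one, against 2.85%.

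By role, the difference was called for 23 of 28 accessory subunits of complex I (median 0.53), 14 of 16 complex IV subunits (0.51), 12 of 15 ATP synthase subunits (0.38) and 4 of 8 complex III subunits (0.41). It was called for 4 of 7 core subunits of complex I (0.18), 2 of 8 of its assembly factors (0.15), 1 of 4 complex II subunits (0.14) and for Cox7a2l (0.23), and for 0 of 4 complex II assembly factors (0.10) and 0 of the pair Atp5s and Atp5sl (0.03). In complex III, Uqcrc1 and Uqcrc2, the large core proteins, had differences of 0.15 and 0.04 with adjusted p of 0.0706 and 0.699. In complex II, Sdhb, the iron-sulfur subunit, had 0.18 (edgeR adjusted p 0.0472) and Sdha, the flavoprotein, 0.10 (0.188). Among isoforms, both members of the Cox6a pair were called (0.71 for Cox6a1, 0.69 for Cox6a2), as were both of the Cox6b pair (0.49 and 1.05) and of the Cox7a pair (0.99 for Cox7a1, 0.27 for Cox7a2). Of the Cox4i and Ndufa4 pairs, the abundant members Cox4i1 and Ndufa4 (0.53) were called, and Cox4i2 (0.34, SE 0.30) and Ndufa4l2 (-0.27, SE 0.32) were not. All 3 Atp5g genes were called, with differences of 0.41, 0.37 and 0.23.

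The count in a single set leaned on particular libraries, whereas the count for the difference moved from 56 to 65 when any 1 control library was left out. In controls 1 to 5 the 32 calls became 17 without fed replicate 3, 18 without fed replicate 4, and 21, 19 and 15 without fasted replicates 2, 4 and 5. In controls 6 to 10 the 23 calls became 3 without fed replicate 9, 3 without fasted replicate 9, 13, 9 and 8 without fed replicate 7, fed replicate 8 and fasted replicate 10, and 50 without fed replicate 10. Shares of all genes called are not given beside these counts, which can move with them. Compared by feeding state, 11 members were lower in fed controls 6 to 10 than in fed controls 1 to 5 (1.15% of all genes; median -0.20). In fasted mice 27 were higher (5.93%; median 0.17).

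Other gene groups moved with the members. The 80 cytosolic ribosomal protein genes had 58 called above 0 in the same difference (median 0.33), with 23 called lower in controls 1 to 5 and 8 higher in controls 6 to 10. Of further pathway genes, all 5 of a list with cytochrome c1, cytochrome c and small ATP synthase proteins were called above 0 (median 0.49), 9 of 30 assembly factors outside the name rule, 1 of 13 citric acid cycle genes and 1 of 13 transcriptional regulators. The 13 mitochondrially encoded subunits went otherwise: 7 rose on fasting in controls 1 to 5, 0 were called in controls 6 to 10, and 3 were called below 0 in the difference. Reads of mitochondrial genes can also align to nuclear copies, and every alignment was counted. Of 5 oligodendrocyte markers, 5 fell in controls 1 to 5, 1 rose in controls 6 to 10 and 4 were called above 0 in the difference (median 0.49). Their summed level was 7417 to 8564 CPM in fed and 6662 to 7339 in fasted controls 1 to 5, and 6363 to 7642 in fed and 7315 to 7908 in fasted controls 6 to 10. The 5 choroid plexus markers had a median difference of 3.55 with 0 called, and summed to 19.6 to 960 CPM in fed and 19.1 to 201 in fasted controls 1 to 5, and to 22.2 to 116 in fed and 24.3 to 1537 in fasted controls 6 to 10. Of 5 ependymal markers 1 was called, of 5 neuronal markers 2 above and 1 below 0, and of 5 microglial markers 2 above 0. On fasting in controls 1 to 5, 4 of 5 microglial markers fell (median -0.36) and 3 of 8 hypothalamic markers rose, and in controls 6 to 10, 2 of 5 microglial markers and 1 of 8 hypothalamic markers fell. Between fasted mice, 5 of 5 microglial markers were higher in controls 6 to 10 than in controls 1 to 5, and 3 of 8 hypothalamic markers lower. The part of these groups in the members' difference was not tested. In bulk tissue, fewer cells of a type and less RNA per cell cannot be told apart.

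Transcript length ran alongside the difference. The principal transcripts of 92 members are 371 to 4715 bases long (median 891.5). In the difference between control sets, 41 of the 46 members at or below that median were called and 20 of the 46 above it, with median values of 0.52 and 0.17. Spearman's rho between log2 length and the difference was -0.684 over 92 members and -0.445 over 14576 genes tested. It was 0.623 for fasting in controls 1 to 5 (0.336 over all genes) and -0.697 in controls 6 to 10 (-0.359 over all genes). All points of one comparison share the same libraries, so these are descriptions. Short transcripts are common to both the members and the ribosomal protein genes, and the part of length in the result was not tested.

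In S662D mice, fasting gave 0 calls among the 93 members, against 2.64% of 18063 genes. With edgeR, 22 of 93 members had an unadjusted p below 0.05, as had 2588 of 18063 genes. DESeq2 called 0, and 88 of 93 estimates were above 0 with a median of 0.14, against 0.00 over all genes. The lowest adjusted p was 0.111, for the core subunit Ndufs7 (log2 fold change 0.22, SE 0.07). Leaving out fed replicate 1 gave 2 calls. All 5 fasted libraries lay above all 5 fed ones for 1 of 93 members (1.96% of all genes). Of the other pathway lists, 3 of 13 mitochondrially encoded subunits rose: mt-Nd1 (0.26, edgeR adjusted p 0.028), mt-Cytb (0.25, 0.0105) and mt-Co1 (0.21, 0.0335). In the 6 libraries with the digit, 11 members rose (3.84% of all genes were called higher), and in the 4 without it 0 of 93 were called (0.133% of all genes) and 5 had an unadjusted p below 0.05. A fit that left out the 4 libraries without the digit gave 2 members in place of 11 (3.71% of all genes). In the 6 libraries with the digit, 9 of 80 ribosomal protein genes (median 0.17), 2 of 5 astrocyte, 1 of 5 oligodendrocyte, 1 of 5 endothelial and 1 of 8 hypothalamic markers also rose, and 1 of 5 microglial markers fell. Their part in the result was not tested. The response of S662D mice minus that of all controls was called for 0 members and for 0% of all genes. It had a median of 0.13, and 87 of 93 estimates were above 0. In edgeR 9 members had an unadjusted p below 0.05, as had 1151 of 18063 genes, and DESeq2 called 0 members. With controls 1 to 5 alone as the reference it was called for 27 members (median 0.31), against 2.73% of all genes. With controls 6 to 10 alone it was called for 0 members and 0% of all genes, with 1 member at an unadjusted p below 0.05 in edgeR and a median of -0.04.

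**Figure D5:**
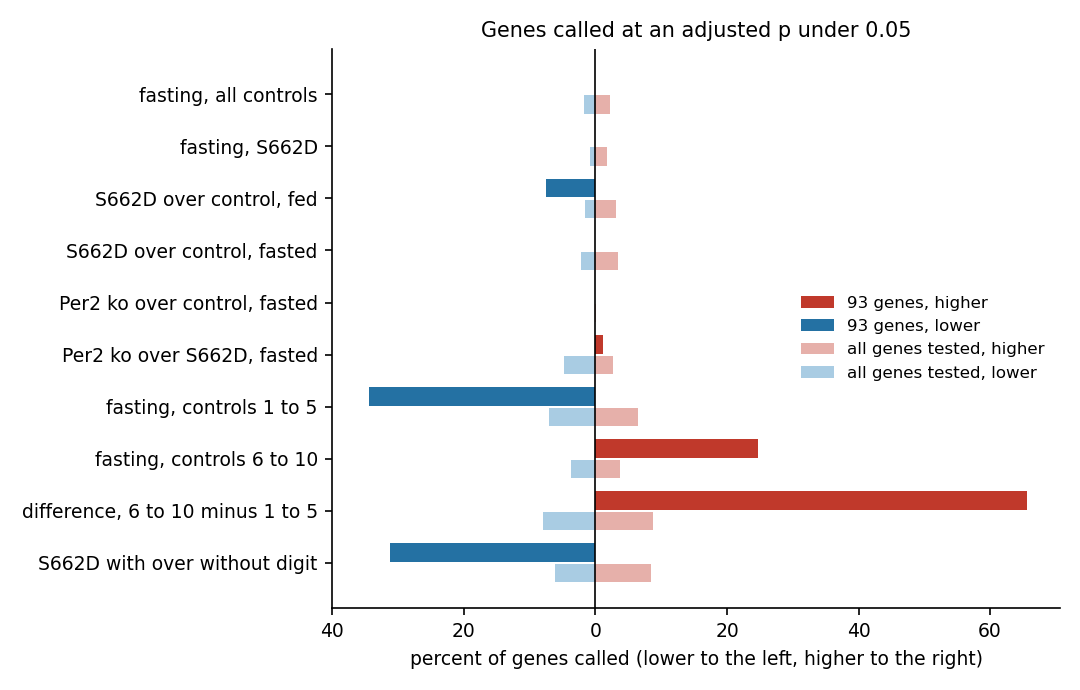
Percent of the 93 members (dark bars) and of all genes tested (pale bars) called at an edgeR adjusted p below 0.05, lower to the left and higher to the right, in 6 comparisons between groups and 4 by library set. The members' bars are absent or short in the group comparisons and long in the library set comparisons, 65.6% for the difference between control sets.

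In the fed state, 7 members were lower in S662D than in control mice and none was higher, against 1.57% of 18063 genes called lower and 3.12% called higher. They came from complex I, ATP synthase and complex IV, with log2 fold changes of -0.13 to -0.27. Over all members the median was -0.11, against -0.01 over all genes, and 87 of 93 estimates were below 0. Ndufaf7, a methyltransferase that assists complex I assembly (chr17:78937135-78948052, plus strand), had 32.4, 26.5, 27.7, 24.4 and 26.8 CPM in fed S662D mice, against 29.8, 32.5 and 36.2 (lowest, median, highest) in fed controls. Replicate 1 lay near the control median and the other 4 S662D libraries below every control library. The log2 fold change was -0.25 (SE 0.06, edgeR adjusted p 0.00868).

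Ndufa9, an accessory subunit at the junction of the complex I arms (chr6:126821721-126849136, minus strand), had 99.3, 77.3, 84.8, 78.4 and 90.3 CPM, against 90.0, 100.6 and 103.0 in fed controls. Its log2 fold change was -0.18 (SE 0.05, edgeR adjusted p 0.0159), with replicates 1 and 5 inside the control range. The core subunits Ndufs1, Ndufs3 and Ndufv2 had -0.13 (SE 0.04, edgeR adjusted p 0.0327), -0.16 (SE 0.04, 0.0313) and -0.17 (SE 0.05, 0.0354). Ndufs1 had 136, 126, 127, 128 and 138 CPM in fed S662D mice against 137, 143 and 150 in fed controls, so 4 of 5 libraries lay below all controls. Atp5f1, the b subunit of the ATP synthase stalk, had 210, 191, 205, 183 and 222 CPM against 208, 228 and 245 (-0.17, SE 0.04, adjusted p 0.0208). Cox7b had 81.2, 75.1, 79.0, 70.0 and 89.2 CPM against 73.6, 100.3 and 105.9 (-0.27, SE 0.08, adjusted p 0.0488). For no member did all 5 fed S662D libraries lie below all 10 fed controls, against 0.432% of all genes.

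This result depended on which libraries were compared. The 7 calls became 0 with the digit as a term, 0 with controls 6 to 10 as the only controls, 30 with controls 1 to 5 as the only controls, 2 with no filter on low counts and 11 with DESeq2. Where no share of all genes called is given in this paragraph, a count can move with that share. The 3 fed S662D libraries with the digit had 57 members lower than controls 1 to 5 (11.5% of all genes called lower) and 10 lower than controls 6 to 10 (3.73%). The 2 without it had 0 called against controls 1 to 5 (0.0886% of all genes) and 0 against controls 6 to 10 (0.111%), with 10 and 1 members at an unadjusted p below 0.05 in edgeR. The medians over members were -0.27 and -0.10 with the digit, and -0.10 and 0.10 without it. Ndufa9 had -0.35 and -0.22 in the first pair of comparisons and -0.10 and 0.02 in the second, and of the 7 genes Cox7b and Ndufv2 were not called in the comparison of the libraries with the digit against controls 6 to 10. Without S662D fed replicate 2 or 4 the count was 0, without replicate 3 it was 1, and without replicate 5 it was 15. Leaving out control fed replicate 2, 3, 4 or 10 gave 4, 3, 3 and 4, and leaving out replicate 9 gave 12. Other groups moved here as well: 7 of 80 ribosomal protein genes were lower (median -0.14), 1 of 5 oligodendrocyte markers was lower, 2 of 5 endothelial markers were higher and 1 lower, and 0 of 5 choroid plexus markers were called (median 0.82). Their part in the result was not tested.

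In the fasted state no member was called between S662D and control mice, against 5.57% of all genes. With edgeR 7 of 93 members had an unadjusted p below 0.05, as had 3757 of 18063 genes. DESeq2 called 1, the median was 0.01 (-0.00 over all genes), and 50 of 93 estimates were above 0. The lowest adjusted p was 0.0671 for Cox5a, another nuclear-encoded subunit of complex IV (log2 fold change 0.15, SE 0.05). By library set the counts were 8 higher and 1 lower with the digit against controls 1 to 5 (11.5% and 8.54% of all genes), 2 higher without it (0.609%), 8 lower with the digit against controls 6 to 10 (7.06%), and 0 without it (0.149%), where 0 members had an unadjusted p below 0.05. Among the other pathway genes only Cox11, a copper chaperone for complex IV, was called in this comparison (0.52, SE 0.14, edgeR adjusted p 0.0205).

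Within S662D mice, libraries with the digit were compared with those without it, feeding state accounted for. Of 93 members 29 were lower and none higher, against 6.2% and 8.44% of 17479 genes, with a median of -0.16 (-0.01 over all genes). The calls were 12 of 28 complex I accessory subunits, 6 of 15 ATP synthase, 6 of 8 complex III and 5 of 16 complex IV subunits, and 0 in the complex I core, complex II, the assembly factors and Cox7a2l. The 4 largest falls were Atp5k (-0.57, SE 0.08, edgeR adjusted p 0.000113), Ndufa5 (-0.43, SE 0.05), Ndufa3 (-0.38, SE 0.07) and Ndufs6 (-0.37, SE 0.06), the last 3 being accessory subunits of complex I. Atp5k had 24.0, 23.4 and 20.6 CPM in fed mice with the digit and 28.3 and 32.2 without it, and 26.4, 24.7 and 21.1 against 38.1 and 40.04 in fasted mice, so the sets did not overlap in either state. All 3 fed libraries with the digit were below both others for 69 of 93 members (21.3% of all genes), and the same held for 27 of 93 in fasted mice (16.7%). Fasted replicate 2, which has the digit, stood apart, with a median deviation of 0.11 against -0.12 and -0.08 in the other fasted libraries with it. Leaving it out gave 68 calls, and leaving out fed replicate 5, fasted replicate 1 or fasted replicate 4 gave 18, 18 and 19. The share of all genes called in these fits is not given.

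The ribosomal protein genes also fell (52 of 79 lower, median -0.20), as did 2 of 5 oligodendrocyte markers, and 1 of 8 hypothalamic markers. Of the other markers 3 of 5 thalamic (median 0.18), 2 of 5 endothelial, 1 of 5 pericyte and mural (median 0.44), 1 of 5 neuronal and 1 of 5 microglial genes rose. Their part in the result was not tested. Of the further lists 4 of 5 cytochrome and small ATP synthase genes, 4 of 30 assembly factors and 6 of 13 mitochondrially encoded subunits fell, and 2 of 13 citric acid cycle genes and 2 of 13 regulators rose. The largest changes among them were Ppargc1b, a transcriptional coactivator (0.61), mt-Atp8 (-0.46), the complex IV assembly factor Cox16 (-0.42) and Atpif1, the ATP synthase inhibitor (-0.38). Of the 29 members lower here, 27 were among the 61 called for the difference in fasting response between control sets (93.1% and 44.3%). The libraries of these 2 comparisons do not overlap. Of all 93 members, 65.6% were among those 61 and 31.2% among those 29. Across the 93 members, rho between the S662D library set estimates and the difference between the control sets' fasting responses was -0.647. Neither this rho nor the overlap was taken over all genes. Spearman's rho of the S662D library set estimates with transcript length was 0.495 over members and 0.413 over all genes.

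The libraries labelled Per2 ko had 0 members called against fasted controls, against 0.0277% of all genes. With edgeR 3 of 93 members had an unadjusted p below 0.05, as had 1097 of 18063 genes. DESeq2 called 0, and the median was 0.04 with 78 of 93 estimates above 0. Against fasted S662D mice 1 of 93 members was called higher, against 2.61% of all genes, with a median of 0.03. This was Ndufv2, an iron-sulfur core subunit of complex I at chr17:66078795-66101559 on the minus strand (log2 fold change 0.18, SE 0.05, edgeR adjusted p 0.0396). It had 146, 149, 130, 137 and 135 CPM in the Per2 ko libraries and 131, 133, 117, 110 and 125 in fasted S662D mice, so the ranges overlapped. The count was 0 when Per2 ko replicate 1, 2 or 4 or S662D fasted replicate 3 or 4 was left out, 3 without S662D fasted replicate 1 and 5 without Per2 ko replicate 3. Of the other pathway genes Cox11 was lower (-0.66, SE 0.16, edgeR adjusted p 0.0113) and mt-Co3 higher (0.21, 0.041). Of the markers, 3 of 8 hypothalamic genes were higher and 3 of 5 endothelial genes lower, and their part in the result was not tested. This comparison and the one between S662D and fasted controls share the S662D libraries.

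Counts of 26 of the 93 members are less certain, because at least 10% of their exon bases overlap another gene (12 members) or at least 10% of the 50-base words of their transcripts are found in a second gene (21 members). Of those named here these are Atp5f1, Atp5g1, Atp5g2, Atp5j, Cox5a, Cox5b, Cox6a2, Cox7a2l, Ndufaf2, Ndufb6, Ndufb9, Ndufs3, Sdhaf1, Sdhaf4 and Uqcrc2. Reads were counted without strand and with every alignment, so reads of pseudogene copies and of antisense neighbours can be in these values.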

How the data were processed

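Polyadenylated RNA was sequenced as paired reads of 150 bases. The authors deposited raw counts per gene, in a separate file for each mouse. Per the submitters' processing notes STAR 2.7.10b, Subread and featureCounts 2.0.1 were used with build mm10, and per the file headers counting used GENCODE vM12, summed by gene name, without strand and with every alignment of multi-mapping reads.

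Genes were kept with filterByExpr by group (minimum count 10), scaled with TMM, and fitted in edgeR 4.0.16 (R 4.3.3; glmQLFit, robust, glmQLFTest) with all 35 libraries in 1 fit. P-values were adjusted over all genes tested (threshold 0.05). CPM uses TMM-scaled library sizes, and deviations are of log2(CPM + 1). The common biological coefficient of variation was 0.09. No pair of libraries of the same group agreed within sampling noise (lowest chi-square per degree of freedom 2.53), and pairs across groups were not compared in this way. The group fit was tried on simulated counts for fasting in controls, fasting in S662D mice and fed S662D against control. Those counts had no library sets, and the fits by library set were not simulated. DESeq2 1.42.0, no scaling, no filter, library sets, a replicate block and leaving out each library were the alternatives, and fits by library set were partly added after the data were seen.

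Members and lists were chosen with earlier results of these data known. The named genes are, per comparison, the 4 called members with the largest rise and fall (all where 8 or fewer were called), per role the highest and lowest per length, the isoform sets, and up to 4 called genes of the other pathway lists. Genes named for the control sets, for a lowest adjusted p, or as contrasts were chosen after their values were seen. Exon overlap comes from the exons in the authors' count files (GENCODE vM12), shared words from GENCODE M21 and promoter windows from RefSeq (GRCm38.p6). One gene matching the name rule was left out by name, and the single values of 1 member are not reported here.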

Additional observations from a re-analysis of the deposited data

Results flagged for a closer look

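The difference between the fasting responses of controls 6 to 10 and controls 1 to 5 was called for 61 of 93 members with edgeR's quasi-likelihood test, and the same contrast of fasted over fed mice had opposite signs in these sets for 85 members. Single libraries were examined in 90 groups of values (16 members, the summed CPM and the median deviation of the members in each of 5 groups), where chance sets a library apart in about 1 of 20. There were 2 such values. Atp5f1 had 217.5 CPM in Per2 ko fasted replicate 3, below the other 4 libraries at 243 to 250. Ndufs1 had 121.6 CPM in S662D fasted replicate 4, below the other 4 at 138 to 143.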

How the results depend on the processing

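Of the alternative counts of called members, 199 were within 1.5 times of the reported count and 63 were not. Most of these counts stand without the share of all genes called at the same setting, and can move with it. Of the alternative values of single members and of medians over members, 375 counted as unchanged. For a single member this means the same direction and call. For a median it means a shift smaller than the spread between libraries of a group, whatever its sign. The median for Per2 ko against fasted controls (0.043), for example, went as low as -0.0333. Of the other values, 89 of single members were no longer called, 8 medians moved beyond that spread and 1 single value changed sign. For fasting in controls, controls 1 to 5 alone gave 25 calls and controls 6 to 10 alone gave 1 in the fit with the other groups. For fasting in S662D mice, libraries with the digit alone gave 2, and leaving out 1 library gave 0 to 2. The difference between the responses of S662D and control mice gave 27 with controls 1 to 5 only. For S662D against control in fed mice (7 calls), DESeq2 gave 11, no filter 2, controls 1 to 5 only 30, controls 6 to 10 only 0, S662D libraries with the digit 26, those without it 0, and the digit as a term 0. Leaving out 1 library gave 0 to 15, libraries with the digit against controls 1 to 5 gave 57, and those without it 0 against either set. Ndufa9 changed sign in that last comparison with controls 6 to 10 (0.0217, not called). For S662D against control in fasted mice, no scaling and DESeq2 each gave 1, controls 1 to 5 only 14, libraries with the digit 1, and by control set 9, 2 and 8, with 0 to 1 when 1 library was left out. For Per2 ko against S662D (1 call), no scaling gave 3, DESeq2 4, no filter 0, libraries with the digit 4, those without it 0, the digit as a term 0, and leaving out 1 library 0 to 5. For controls 6 to 10, DESeq2 gave 41 and no filter 39. Leaving out 1 library gave 15 to 41 in controls 1 to 5, 3 to 50 in controls 6 to 10, 56 to 65 for their difference and 18 to 68 for the S662D library sets. The cause was not tested.

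Same-numbered samples showed little likeness across all groups. Over 55 such pairs r was -0.319 to 0.29 with a median of 0.0153, over 0.1 in 14, and 10 samples correlated best with their own number. Values over 0.1 were 4 of 5 between S662D fasted and fed mice and 3 of 5 between fed control and fed S662D mice. Between fasted and fed controls they were 0 of 10. Shifts between library sets enter these values, so they cannot decide whether samples were paired. With the replicate block the counts were 7 for fed S662D against control, 1 for Per2 ko against S662D, 22 in controls 1 to 5, 17 in controls 6 to 10 and 56 for their difference. Depth limits most the members with the lowest mean counts per library, Cox4i2 (29.5), Cox7a1 (30.6), Ndufa4l2 (37.6) and Cox6b2 (48.7).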
